A study of Mus musculus with 24 samples.

Results

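The comparison set brains of newborn mice from the 20th generation of serial cloning against brains of clones made directly from cumulus cells. It used 8 of the 24 arrays of the series, 4 labelled G20 and 4 labelled CC, chosen by their sample titles. In serial cloning the nucleus of a somatic cell is moved into an enucleated oocyte, and cells of the resulting clone then supply nuclei for the next round. G20 animals came from 20 generations of this, with cumulus cells (which surround the oocyte) as donors, and CC animals were cumulus cell clones whose generation the labels do not number. NC animals, conceived by intracytoplasmic sperm injection (a sperm injected directly into an oocyte), gave values beside the comparison on 4 further brain arrays. All 3 groups were neonatal females with C57BL/6, DBA2 and 129/Sv ancestry, crossed as (C57BL/6 x DBA2) x 129/Sv. The CC and NC labels number 4 animals each. For G20 the design text of the series says 4 clones, whereas the 4 G20 arrays carry one source name (G20-1). The p-values therefore measure the spread between arrays, which for G20 may be technical.

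A cloned embryo inherits the donor nucleus with its marks and has to reset them. Genomic imprints, the DNA methylation that silences one parental copy of a gene, are kept through this resetting and are not renewed without passage through the germ line. Many imprinted genes are active in brain, among them growth regulators such as Plagl1 and Peg3 and a long cluster of RNAs that starts at Snrpn. The series asks whether faults of reprogramming build up over rounds of cloning. The comparison of G20 with CC bears on that question, but labels, scan session and slide limit what it can answer. Donor genotype, which may also differ between the groups in such a cross, was not compared.

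Levels are log2 signal of single-colour arrays minus the array's 75th percentile, so a level of 0 is the 75th percentile of that array and a difference of 1 is 2-fold. The G20 and NC brain arrays were scanned in one session and the CC brain arrays in another, 172 days later, each group on a slide of its own, so that session, slide and group cannot be told apart for G20 against CC. The slope of the spike-in line in the file headers, which reads how signal follows added RNA, was 0.929 to 0.974 on G20 arrays, 0.814 to 0.887 on CC arrays and 0.956 to 0.988 on NC arrays. It was lower on all CC arrays than on all G20 arrays (exact permutation test, two-sided, p = 0.0286, n = 4 against 4, the smallest p that 70 splits allow). Probes well above background made up 68.1% to 70.6% on G20 arrays, 62.4% to 63.9% on CC arrays and 68.1% to 70.3% on NC arrays. The brain label held: Snap25 and Tubb3, genes of neurons, were well above background on all 4 arrays of each group.

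On the scanner files 12374 of 18298 genes (67.6%) passed limma's test between G20 and CC at a Benjamini-Hochberg adjusted p under 0.05. G20 was higher for 5076 of them (27.7% of the genes tested) and lower for 7298 (39.9%). The higher share of the calls was 41.0%, and it was 28.8% when arrays were centred on their median, 45.3% after quantile normalization and 50.7% when the percentile was taken over probes well above background on all brain arrays (6210 higher, 6028 lower). The median difference of all genes between G20 and CC was -0.11, and under these 3 scalings it was -0.27, -0.06 and 0.01. Normexp background correction gave 3710 calls. By contrast, 295 genes (1.61%) passed between G20 and NC, which shared a session, 197 of them higher in G20 (1.08%) and 98 lower (0.536%).

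The series matrix, the authors' own processed intensities for the same arrays, gave 227 of 16333 genes (1.39%). G20 was higher for 40 of them (0.245%) and lower for 187 (1.14%). On G20 and NC arrays a single multiplier turned scanner signal into matrix values, leaving a spread (SD) of at most 0.0427 in log2 between probes. On CC arrays each probe had a multiplier of its own besides, the same on all 4, and that spread was 0.631 to 0.642. Over 24439 probes the CC multiplier (log2) correlated with G20 minus CC on the scanner files at Pearson r = 0.950, and with NC minus CC at 0.962, where the CC arrays enter both sides. The CC values of the matrix are therefore moved probe by probe towards both other groups, and a matrix difference near 0 has to be read with that. No source used here says where these multipliers come from. The matrix is a second processing of the same scans and not a second measurement. The standard deviation of G20 minus CC over genes was 0.63 on the scanner files and 0.19 in the matrix, for the same 16333 genes.

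A gene was counted as held by both sources when it passed in each with the same sign. That gave 216 genes (1.32%), 39 higher (0.239%) and 177 lower (1.08%), and no gene had opposite calls. Of these, 65 had a further measured probe, and in 38 of the 65 every further probe had the same sign. Counting those 38 and the genes with a single measured probe gave 189 (1.16%), 38 higher in G20 (0.233% of those tested) and 151 lower (0.925%). The count of 189 was 93, 94, 187 and 75 without G20 replicates 1, 2, 3 and 4 in turn, and 84, 91, 82 and 100 without CC replicates 1, 2, 3 and 4 in turn. Between 72 and 141 of the 189 were among the calls of these fits. Normexp gave 93, of which 83 were among the 189, and the G20 and CC arrays fitted alone gave 120, of which 98 were. Across the fits without 1 array, 60 features, 22 higher and 38 lower, were called in all 8.

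**Figure D1:**
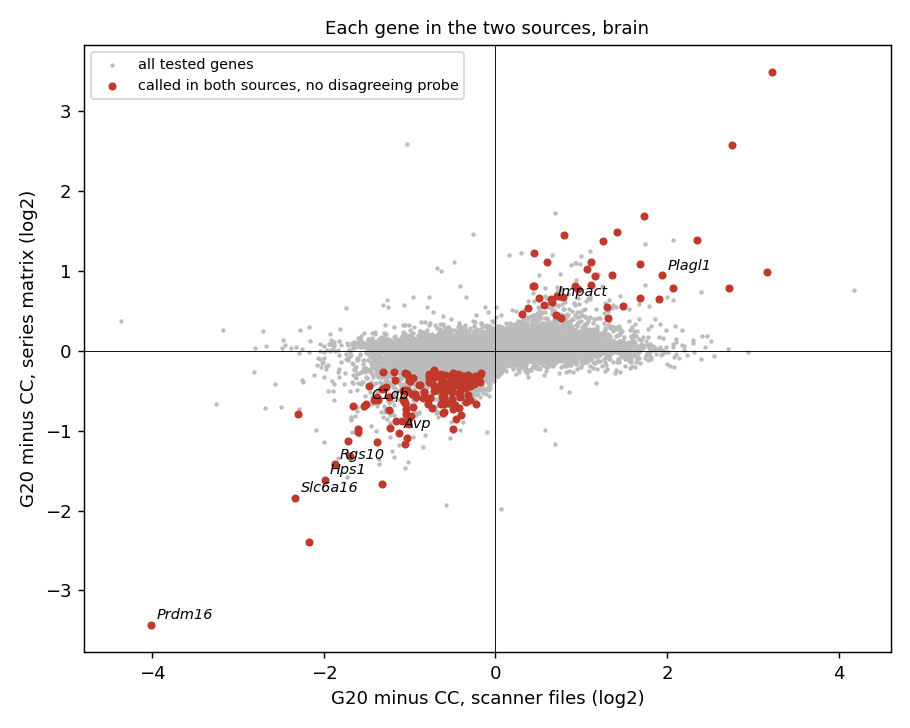
Each grey point is a gene measured in both sources, with the log2 difference of G20 minus CC on the scanner files along the horizontal axis and in the series matrix along the vertical axis. Red points are the 189 genes called in both, 38 of which had further probes, all of the same sign, and the rest a single measured probe. The grey cloud spreads far more along the horizontal axis (SD 0.63) than along the vertical one (SD 0.19).

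Imprinted genes were the first group examined. Plagl1 is a zinc finger transcription factor that restrains growth and is expressed from the paternal copy. It had the largest rise of the called genes whose name in the file was a symbol, leaving predicted genes aside. Of 31 measured genes of a list of paternally expressed genes, 13 were higher and 5 lower on the scanner files (27.7% and 39.9% over all genes). Of the 28 measured in both sources 3 were higher in both, Plagl1, Impact and Zrsr1, beside 0.239% over all genes. The list's median difference was 0.15 on the scanner files and 0.08 in the matrix, against -0.11 and 0.02 over all genes. Plagl1 was called in both in all 8 fits without 1 array, Impact in 2 of them (without G20 replicate 3 or 4) and Zrsr1 in 1 (without CC replicate 2).

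Both promoters shown are paternally expressed starts whose maternal copy is methylated in the germ line, and they are given because the RNAs they start were higher in G20. CG dinucleotides, the sites of DNA methylation, are in capitals. The sequences are from RefSeq on GRCm38.p6, plus strand, in a window of 300 bases around the start, and methylation was not measured. Plagl1 lies at chr10:13090582-13090881 and Zrsr1 at chr11:22971755-22972054.
Plagl1: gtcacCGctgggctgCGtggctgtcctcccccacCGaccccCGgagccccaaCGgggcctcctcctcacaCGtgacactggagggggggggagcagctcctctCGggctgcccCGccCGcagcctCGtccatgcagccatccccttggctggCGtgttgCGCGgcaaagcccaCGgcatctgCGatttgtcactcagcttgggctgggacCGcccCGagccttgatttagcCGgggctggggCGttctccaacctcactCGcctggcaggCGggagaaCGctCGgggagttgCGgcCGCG
Zrsr1: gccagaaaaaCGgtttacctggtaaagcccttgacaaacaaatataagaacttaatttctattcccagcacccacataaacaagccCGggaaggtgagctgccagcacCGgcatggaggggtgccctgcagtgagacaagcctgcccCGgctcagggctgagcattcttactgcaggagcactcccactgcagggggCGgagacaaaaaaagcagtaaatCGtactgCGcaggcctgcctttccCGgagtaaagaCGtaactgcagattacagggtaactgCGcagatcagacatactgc
Plagl1's window holds 26 CG and Zrsr1's 10, where 16.9% and 43.5% of 32851 promoters hold as many or more, and the median is 7.

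Plagl1 (probe at chr10:12821672-12821731, mm8, to which all other positions refer) measured 4.51, 4.61, 4.50 and 4.64 in G20 brains, against 2.41, 2.70, 2.70 and 2.68 in CC brains. Every G20 brain lay above every CC brain, and the NC brains, at 3.66, 3.47, 3.52 and 3.68, lay between them. G20 and CC did not overlap for 59.5% of all genes on the scanner files. The difference of G20 minus CC was 1.95 ± 0.08 (SE, limma adjusted p = 4.63e-08) on the scanner files and 0.94 ± 0.08 (adjusted p = 8.14e-05) in the matrix. A further probe gave 2.31 and 1.10. Plagl1 was also higher in G20 than in NC by 0.98 (adjusted p = 1.06e-04), and the deposited intensities were 18072 to 19718 in G20 brains, against 8298 to 10234 in CC brains.

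Impact, which regulates the eIF2 kinase Gcn2, measured 3.62, 3.88, 3.54 and 3.20 in G20 brains, against 2.92, 2.93, 2.80 and 2.94 in CC brains. The groups did not overlap, with a difference of 0.66 ± 0.12 (adjusted p = 5.21e-04) on the scanner files and 0.61 (adjusted p = 0.0251) in the matrix. Zrsr1, an RNA-binding gene inside an intron of Commd1, measured 2.30, 2.54, 2.40 and 2.37 in G20 brains, against 1.71, 2.52, 1.60 and 2.05 in CC brains. Its groups overlapped on the scanner files, where CC replicate 2 stood with G20, and the difference was 0.43 ± 0.16 (adjusted p = 0.0314), against 0.81 (adjusted p = 0.0292) in the matrix. AK052949, a transcript without a symbol in the same stretch of chromosome 11, was higher by 1.26 ± 0.30 (adjusted p = 0.00264).

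Other paternally expressed genes were higher on the scanner files and not in the matrix. Peg3, a zinc finger gene of growth and maternal behaviour, measured 1.68, 1.87, 1.49 and 1.63 in G20 brains, against 0.21, 0.33, 0.16 and 0.42 in CC brains. It differed by 1.39 ± 0.11 (adjusted p = 7.20e-07) there and by 0.01 in the matrix, and NC brains stood with G20 at 1.53, 1.91, 1.90 and 1.62. Snrpn, a splicing protein gene, differed by 0.86 and 0.22 and Snurf, on the same transcript, by 1.07 and 0.22.

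Some imprinted genes were called in neither source. Igf2, a fetal growth factor, differed by 0.01 (adjusted p = 0.95), and H19, the non-coding RNA beside it, by -0.06 (adjusted p = 0.834), with G20 and CC overlapping. Their further probes gave -0.07 and -0.33 (adjusted p = 0.683 and 0.223). The same held for Dlk1, a Notch-like ligand, at -0.04, and for the growth inhibitor Cdkn1c, at -0.03. Xist, the RNA that silences one X chromosome, measured 3.78, 3.82, 3.55 and 3.79 in G20 brains, against 3.13, 3.50, 3.98 and 4.15 in CC brains, a difference of 0.05 (adjusted p = 0.827) with overlapping groups at its brightest probe. The other Xist probes gave 0.11 (adjusted p = 0.514), 0.94 (adjusted p = 1.54e-05) and 0.40 (adjusted p = 0.00382) on the scanner files and 0.15, 0.00 and 0.25 in the matrix, so that the probes of Xist disagreed. At the probe with 0.94 the G20 arrays lay at 3.50 to 3.70, all above the CC arrays at 2.32 to 2.86. Xlr4b, an X-linked imprinted gene, gave -0.27 against CC (adjusted p = 0.582), whereas both clone groups lay below the NC brains (G20 minus NC -2.42, adjusted p = 0.0139).

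**Figure D2:**
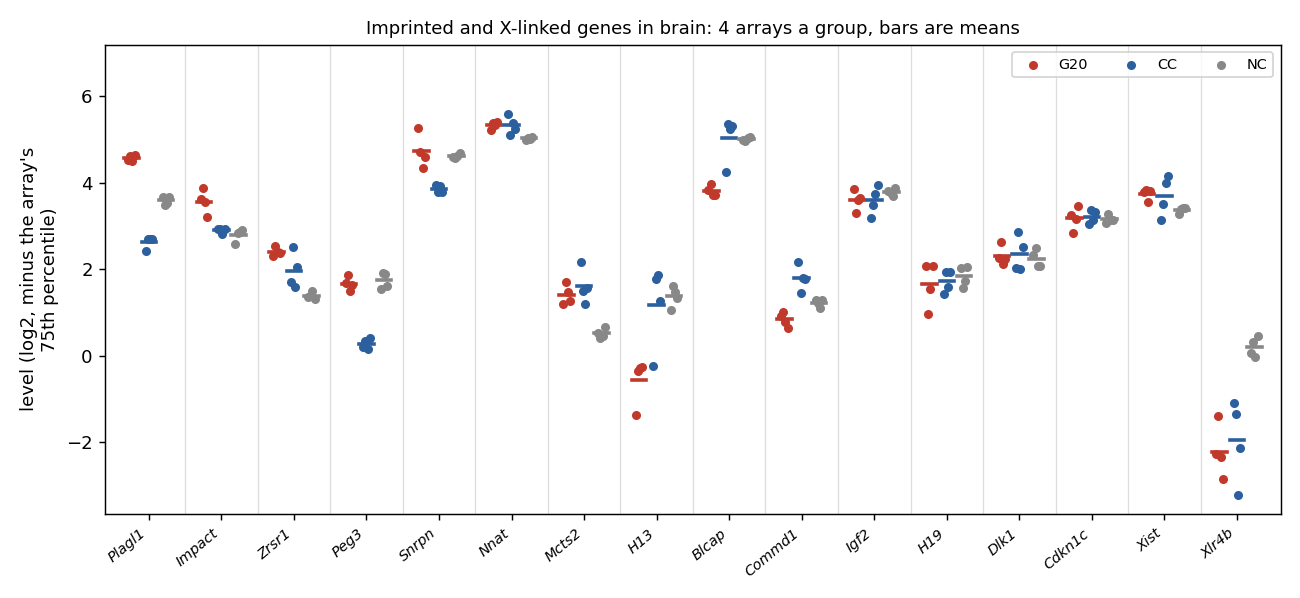
Each point is an array and each bar a group mean, with the level on the vertical axis as log2 minus the array's 75th percentile and G20, CC and NC from left to right for each gene. Plagl1 shows 3 separate groups, while Peg3 and Snrpn have G20 beside NC with CC below both.

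Several imprinted genes lie inside a host gene, and the probes of 2 of the 3 hosts described did not move together. H13, a signal peptide peptidase, holds the paternally expressed gene Mcts2 in an intron. Its probe at chr2:152398054-152398113 measured -1.36, -0.35, -0.29 and -0.25 in G20 brains, against -0.23, 1.77, 1.86 and 1.27 in CC brains. CC replicate 1 stood with the G20 brains, apart from the other CC brains, and G20 replicate 1 was the lowest of all. The difference was -1.73 ± 0.40 (adjusted p = 0.00234) on the scanner files and -1.57 (adjusted p = 0.0805) in the matrix. Without CC replicate 1 it was -2.19 on the scanner files and H13 was called in both sources. Another probe on the same side of Mcts2 gave -2.24 and -1.99. A probe on the other side of Mcts2 gave 0.46 and 0.19, and against NC it gave 1.08. Mcts2 itself was higher in G20 than in NC by 0.90 (adjusted p = 0.031) and not higher than in CC, at -0.19 (adjusted p = 0.349).

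Blcap, which holds the paternally expressed gene Nnat, showed a like split. Its probe at chr2:157247840-157247899 measured 3.83, 3.97, 3.70 and 3.71 in G20 brains, against 4.24, 5.34, 5.24 and 5.30 in CC brains. CC replicate 1 was the lowest CC brain by far and still above each G20 brain, and the difference was -1.23 ± 0.20 (adjusted p = 1.83e-04) and -1.09 in the matrix (adjusted p = 0.023). It was called in both in 2 of the 8 fits without 1 array (without G20 replicate 3 or CC replicate 1). The next probe gave -0.67 and -1.26. There CC replicate 1, at -2.75, lay below all G20 arrays (-2.56 to -2.44), and the other CC arrays lay above them at -1.60 to -1.44. The probe beyond Nnat gave 0.13 and 0.14, and 1.13 against NC. Nnat differed by 0.01 (adjusted p = 0.944). All 3 probes of Commd1, the host of Zrsr1 and a copper and trafficking factor, were lower, at -0.95, -1.41 and -1.95 on the scanner files. In the matrix they gave -0.48, -0.68 and -0.71, and the first had an adjusted p of 0.0959. Against NC the same probes gave -0.38 (adjusted p = 0.17), -0.59 and -0.63 on the scanner files, while NC minus CC was -0.57, -0.82 and -1.32. Of 32 measured genes of the maternally expressed list, 3 were higher and 14 lower on the scanner files, beside 27.7% and 39.9% over all genes, and Blcap alone was called in both sources, without all its probes agreeing.

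The stretch of chromosome 7 between 59 and 63 Mb, with Ube3a, Snrpn, Ndn and Mkrn3, held the largest rise of any feature called in both sources. It was chosen for description after its values were seen. Of its 25 measured features 17 were higher and 1 lower on the scanner files (27.7% and 39.9% over all genes). 3 of the 17 (EG330549, AK083530 and Chrna7) passed the filter on dim probes through G20 alone, and 14 of the other 22 features were higher. Of the 16 measured in both sources 4 were higher in both, beside 0.239% over all genes. All 4 carry clone or locus names. A230057D06Rik (chr7:61584950-61585009) measured 0.23, 0.21, 0.01 and 0.11 in G20 brains, against -3.22, -3.21, -2.82 and -3.09 in CC brains, with the NC brains at -3.21, -3.49, -3.44 and -3.36. NC stood with CC here, and G20 stood above both. The difference was 3.22 ± 0.10 (adjusted p = 9.29e-09), 3.48 in the matrix (adjusted p = 1.24e-09) and 3.51 against NC (adjusted p = 3.37e-09). The deposited intensities were 811 to 939 in G20 brains, against 73.8 to 92.9 in CC brains.

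AK045462 measured -0.56, -1.12, -0.92 and -0.97 in G20 brains, against -3.96, -3.94, -3.22 and -3.48 in CC brains, a difference of 2.75 ± 0.18 (adjusted p = 2.57e-07) and 2.57 in the matrix. A330076H08Rik differed by 1.73 ± 0.18 and 1.68, and D7Ertd715e by 1.42 ± 0.31 and 1.49 (adjusted p = 0.00138 and 0.0335). G20 and CC did not overlap for any of these. D7Ertd715e was not called in both in all 8 fits without 1 array, whereas the other 3 were. Where no CC array was well above background the change is a bound, the G20 mean against the dimmest signal well above background on each CC array: AK030614 was at least 17.5-fold higher in G20 (adjusted p = 4.63e-08) and EG330549, measured through G20 alone and given with no test, at least 6.91-fold. D0Kist2 measured -1.60, -0.68, -2.06 and -1.92 in G20 brains and was not well above background in any CC brain (adjusted p = 2.46e-07). The coding genes of the stretch did not follow in both sources. Ndn differed by -0.24 (adjusted p = 0.164) and Magel2 by 0.12 (adjusted p = 0.578). Ube3a, a ubiquitin ligase expressed from the maternal copy in neurons, differed by -0.04 (adjusted p = 0.92). Its brightest probe measured 1.64, 3.45, 3.19 and 3.19 in G20 brains, against 2.91, 2.90, 2.83 and 2.97 in CC brains. There G20 replicate 1 lay below every CC array and the other G20 arrays lay above them all. At the further Ube3a probes G20 replicate 1 was again the lowest G20 array. Mkrn3 was higher by 0.97 on the scanner files and had an adjusted p of 0.308 in the matrix.

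**Figure D3:**
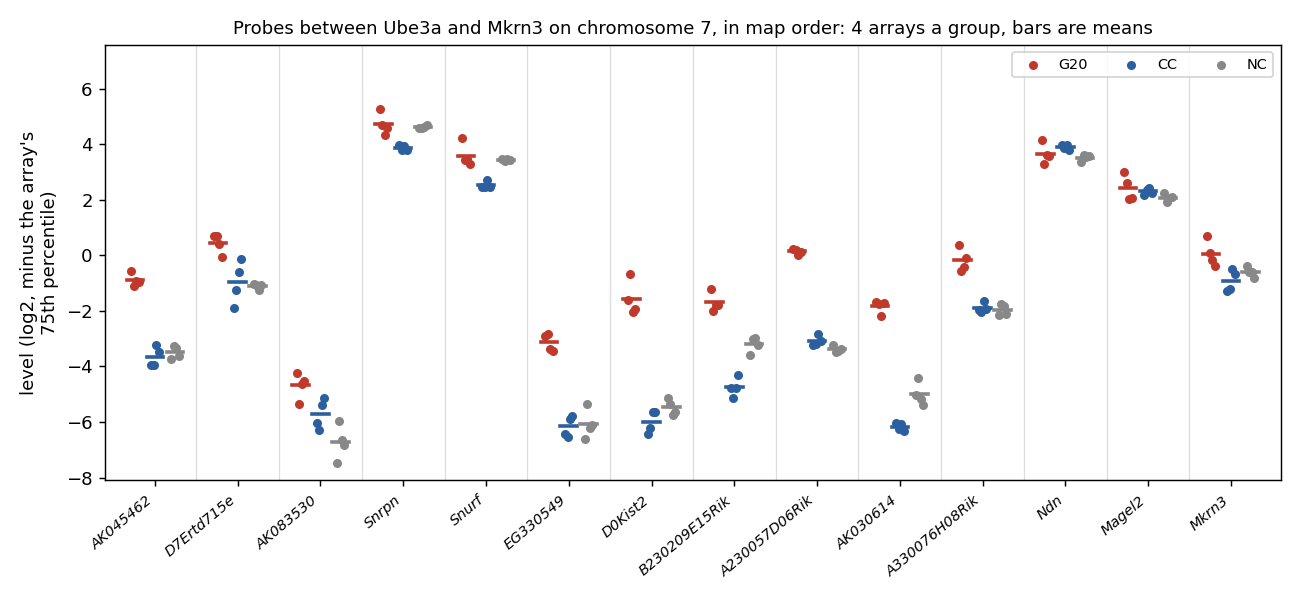
Selected probes between Ube3a and Mkrn3 in map order, a point for each array and a bar for each group mean. The level is on the vertical axis, with G20, CC and NC from left to right. A230097C02, AK039079 and AK034336, in the same stretch and not shown, had G20 minus NC of 0.82, 0.79 and 0.09. They were not called between G20 and NC. A230057D06Rik, D0Kist2 and AK030614 stand high in G20 and low in both other groups, while Ndn and Magel2 lie together in all 3 groups.

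Most of the 38 genes higher in both sources, 27, carried a clone, locus or accession name in the file. Some of these 27 now have a symbol (4930431L04Rik is Galntl6 and AI450540 is Fam160b1). 8 of them were predicted transcripts in the first 8 Mb of chromosome 14, higher by 1.07 to 3.16 on the scanner files and by 0.56 to 1.02 in the matrix. Their probes may share sequence, and probe sequences were not used here, so these counts may stand for fewer genes. Rpp14 and Pdhb, in the same stretch, were lower. Among genes with a symbol, Hps5, a part of the complex that forms lysosome-related organelles, measured -0.40, -0.35, -0.36 and -0.28 in G20 brains, against -1.71, -1.77, -1.62 and -1.53 in CC brains. The groups did not overlap, the difference was 1.31 ± 0.07 (adjusted p = 7.94e-08) and 0.41 in the matrix, and NC lay between. Htatip2, an oxidoreductase that promotes cell death, was low in both groups at -2.99, -3.12, -3.05 and -2.81 in G20 brains, against -3.66, -4.54, -4.18 and -4.23 in CC brains. It was higher by 1.16 ± 0.15 (adjusted p = 2.60e-05) and 0.93, and a second probe gave 1.02. Normexp background correction reversed it to -0.0991. Eif2c2, now Ago2, the small RNA-guided nuclease, was higher by 0.72 ± 0.15 and 0.69, with further probes at 1.12 and 0.16, and 2310051F07Rik beside it by 0.71 ± 0.07 and 0.44. Lama3, a laminin chain, was higher by 1.30 ± 0.11 and 0.55, and Nipsnap1, a mitochondrial protein, by 0.76 ± 0.09 and 0.40. Of the 8 fits without 1 array, the call in both sources held in 1 for Eif2c2 (without G20 replicate 3), in 1 for Nipsnap1 (without CC replicate 2) and in 3 for Lama3 (without G20 replicate 2 or 3 or CC replicate 4). Normexp gave 0.34 for Lama3 (adjusted p = 0.547).

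Lower genes outnumbered higher ones, 151 against 38. On the scanner files 47 of the 151 were lower at least 2-fold, and 21 of the 38 were higher at least 2-fold. Slc6a16, an orphan transporter of the neurotransmitter family, measured -4.79, -4.11, -4.93 and -4.95 in G20 brains, against -2.34, -2.38, -2.29 and -2.44 in CC brains. All G20 brains lay well below all CC brains, with NC nearer to CC at -2.72, -3.16, -2.89 and -2.89. The difference was -2.33 ± 0.16 (adjusted p = 3.83e-07) and -1.84 in the matrix (adjusted p = 1.84e-04), and -1.29 after normexp (adjusted p = 0.0733). Hps1, a partner of the organelle complexes, measured -3.87, -4.06, -4.09 and -3.90 in G20 brains, against -2.12, -2.28, -1.72 and -1.83 in CC brains, a difference of -1.99 ± 0.18 (adjusted p = 1.73e-06) and -1.61, and its second probe gave -1.33 and -0.49.

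Rgs10, which speeds the shutting off of G protein signals and is strong in microglia and neurons, measured 0.33, 0.74, 0.72 and 0.62 in G20 brains, against 2.69, 2.57, 2.22 and 2.43 in CC brains. The groups were far apart, with NC at 1.99, 2.02, 1.99 and 1.91, and the difference was -1.88 ± 0.11 (adjusted p = 1.58e-07), -1.42 in the matrix (adjusted p = 4.05e-05) and -1.38 against NC (adjusted p = 7.40e-05). Deposited intensities were 1009 to 1327 in G20 brains, against 2716 to 3737 in CC brains. Plekhm2, an adaptor for lysosome transport, was lower, at -1.69 ± 0.12 and -1.32 and against NC by -1.32. Pop4, a subunit of ribonuclease P, was lower, at -1.01 ± 0.07 and -0.84.

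Prdm16, a transcription factor of neural stem cells, gave the largest difference of the genes called in both. It measured -3.20, -3.14, -3.54 and -3.14 in G20 brains, against 0.48, 1.00, 0.80 and 0.76 in CC brains. The NC brains read 0.28, 0.15, -3.56 and 0.11, so that NC replicate 3 stood with G20 and the other NC brains with CC. The difference was -4.01 ± 0.67 (adjusted p = 2.21e-04) and -3.43 in the matrix (adjusted p = 0.0292), with -2.50 against NC (adjusted p = 0.0835). Leaving out any 1 of the 8 arrays ended its call in both sources.

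Avp, the vasopressin precursor of hypothalamic neurons, measured -0.74, -0.61, -1.02 and -0.67 in G20 brains, against 0.22, 0.11, 0.69 and 0.46 in CC brains. The groups did not overlap, NC stood with CC at 0.19, 0.00, 0.19 and 0.29, and the difference was -1.13 ± 0.13 (adjusted p = 1.17e-05) and -1.03 in the matrix (adjusted p = 0.00193). Of 20 measured genes of the list of hypothalamic, pituitary and neuropeptide genes it was the only one called in both, where 2 were higher and 9 lower on the scanner files, beside 27.7% and 39.9% over all genes. After normexp 1 was lower and none higher. Fewer cells of a type and less RNA per cell cannot be told apart in such bulk tissue. Cryab, a small heat shock protein, was lower, at -0.94 ± 0.11 and -0.54, and was called in both in 1 of the 8 fits without 1 array (without G20 replicate 3).

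**Figure D4:**
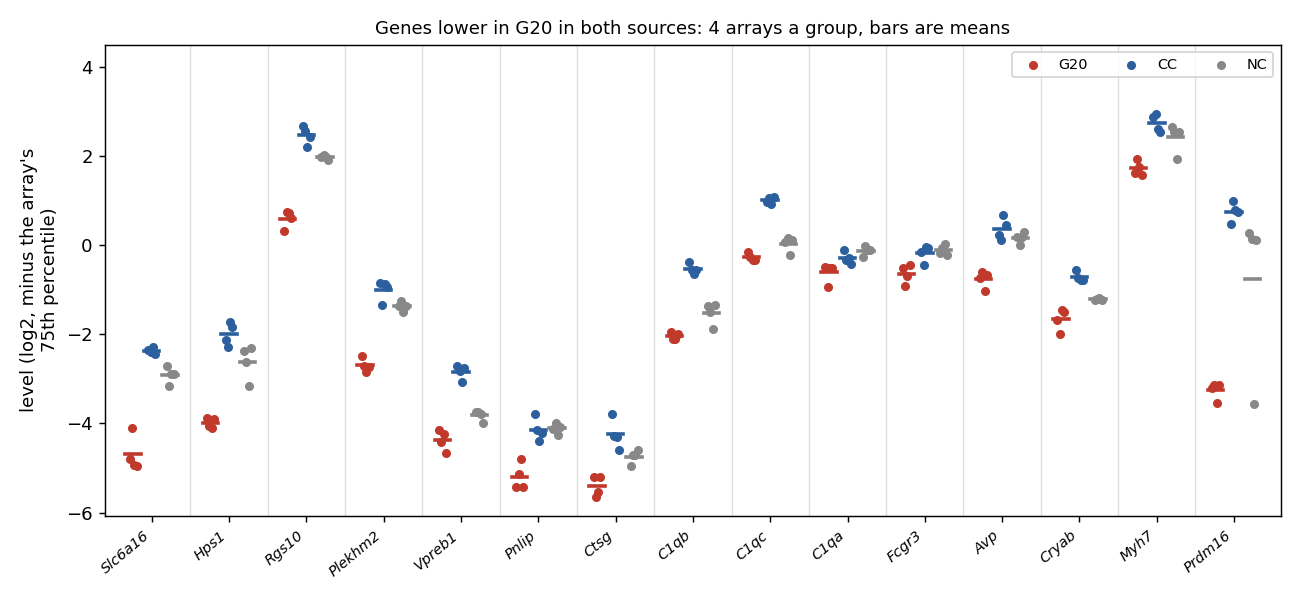
Genes lower in G20 in both sources, a point for each array and a bar for each group mean, with the level on the vertical axis and G20, CC and NC from left to right. Rgs10, Slc6a16 and Avp have all G20 arrays below all CC and NC arrays, and 1 NC array of Prdm16 lies with G20.

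Microglial genes had the largest number of calls in both sources of the cell type lists, 4 of 21. The list of mast cell, granulocyte and lymphocyte genes had the larger share, 3 of 10. Over all genes 1.32% were called in both sources, and 1.08% were lower in both. Microglia, the resident macrophages of the brain, make complement component C1q, which tags synapses for removal. Of 23 measured genes 1 was higher and 17 lower on the scanner files, with a median of -0.52 (27.7% and 39.9% over all genes, with a median of -0.11), and those lower in both sources were C1qa, C1qb, C1qc and Fcgr3, a receptor for antibody. In the matrix the median was -0.14. On the scanner files the list's median was -0.12 for G20 minus NC and -0.44 for NC minus CC. Between 2 and 4 genes of the list were called in both when 1 array was left out, and 3 after normexp. C1qb and Fcgr3 were called in all 8 of those fits, C1qa in 4 (not without G20 replicate 4 or CC replicate 1, 2 or 3) and C1qc in 2 (without G20 replicate 1 or CC replicate 3). The summed level of the list was 3.63 to 3.71 in G20, 4.39 to 4.49 in CC and 3.73 to 3.77 in NC.

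C1qb measured -1.95, -2.11, -2.10 and -2.0 in G20 brains, against -0.37, -0.56, -0.64 and -0.55 in CC brains. All G20 brains lay below all CC brains, and NC, at -1.36, -1.50, -1.87 and -1.34, lay between. The difference was -1.51 ± 0.11 (adjusted p = 5.21e-07), -0.67 in the matrix (adjusted p = 0.0123) and -0.52 against NC (adjusted p = 0.0431). C1qc differed by -1.28 ± 0.09 and -0.45, C1qa by -0.32 ± 0.11 and -0.56, and Fcgr3 by -0.47 ± 0.12 and -0.68. A second Fcgr3 probe gave -0.20 (adjusted p = 0.377) on the scanner files and -0.18 in the matrix. Other microglial genes were not called in the matrix: Csf1r, the receptor microglia need to survive, gave -0.78 and -0.25 (adjusted p = 0.112), and Aif1 gave -0.79 and 0.08 (adjusted p = 0.902).

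The promoters of C1qb and C1qc are shown because both RNAs were lower and both genes lie in one cluster with C1qa. Capitals mark GAGGAA or its reverse complement TTCCTC, the core bound by the myeloid factor PU.1. Sequences are from RefSeq on GRCm38.p6, minus strand, at chr4:136886151-136886450 and chr4:136892865-136893164.
C1qb: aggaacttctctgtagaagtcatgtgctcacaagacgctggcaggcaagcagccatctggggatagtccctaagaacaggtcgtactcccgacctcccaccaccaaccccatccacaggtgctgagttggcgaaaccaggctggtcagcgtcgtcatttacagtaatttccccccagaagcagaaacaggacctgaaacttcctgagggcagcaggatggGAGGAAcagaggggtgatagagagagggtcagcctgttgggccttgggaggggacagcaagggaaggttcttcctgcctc
C1qc: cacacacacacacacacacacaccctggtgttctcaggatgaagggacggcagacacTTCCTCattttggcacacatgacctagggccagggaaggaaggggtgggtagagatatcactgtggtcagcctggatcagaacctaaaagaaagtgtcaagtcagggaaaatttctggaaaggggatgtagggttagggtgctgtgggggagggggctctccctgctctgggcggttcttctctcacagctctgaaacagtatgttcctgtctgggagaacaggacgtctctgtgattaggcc
Each window holds 1 match, as do 28.3% of all 32851 promoters at least once on either strand, so the match is a description of the window and says nothing of binding.

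Genes of the lists for other blood cells and for muscle were called as well. The list of mast cell, granulocyte and lymphocyte genes had 12 measured. None was higher and 6 were lower on the scanner files, beside 27.7% and 39.9% over all genes. Those lower in both were Ctsg, Vpreb1 and Ccl21a (named Ccl21b in the file, and one of several near-identical copies). After normexp no gene of the list was called on the scanner files or in both, and between 1 and 3 were called in both when 1 array was left out. Ctsg lost its call without G20 replicate 2 or CC replicate 2, and Ccl21a kept it without G20 replicate 3 or 4 or CC replicate 3. Vpreb1 measured -4.14, -4.43, -4.24 and -4.65 in G20 brains, against -2.70, -2.82, -3.07 and -2.74 in CC brains and Ctsg -5.20, -5.64, -5.54 and -5.20 in G20 brains, against -3.79, -4.29, -4.30 and -4.59 in CC brains, so both were dim in both groups. The mast cell genes Cma1 and Cpa3 differed by -1.36 and -1.02 on the scanner files and had adjusted p values of 0.18 and 0.181 in the matrix. The list's summed level was 2.13 to 2.24 in G20, 2.30 to 2.61 in CC and 2.19 to 2.69 in NC. Of 21 measured skeletal muscle genes 1 was higher and 9 lower, near the 39.9% of all genes that were lower. The myosins Myh7 and Myh8 were lower in both, 2 of 16, beside 1.08% over all genes. After normexp 2 were lower and 1 was called in both, and Myh8 lost its call without G20 replicate 4 or CC replicate 1 or 2. Myh7 differed by -1.02 ± 0.15 and -0.92, with the list's summed level 2.43 to 2.68 in G20, 3.19 to 3.50 in CC and 2.75 to 3.12 in NC. What the genes of these lists contribute to the other differences was not tested.

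Large housekeeping lists showed how far the scanner files and the matrix differ. Of 74 genes of the cytosolic ribosome, 62 were lower and 1 higher on the scanner files with a median of -0.62 (39.9% lower and 27.7% higher over all genes), while the matrix median was 0.02 and no gene was called in both. Of 60 nuclear-encoded genes of oxidative phosphorylation, 52 were lower and 1 higher, with medians of -0.68 and -0.02. Of 33 interferon response genes, 27 were lower and 1 higher, with medians of -1.05 and -0.17, and Ifitm1 alone was called in both, in 2 of the 8 fits without 1 array (without G20 replicate 3 or CC replicate 3) and not after normexp. In each of these 3 lists the median of G20 minus NC was near 0, at 0.04, 0.08 and -0.13. Of 45 genes of DNA methylation and chromatin, 17 were higher and 10 lower on the scanner files and none was called in both. Dnmt1, the maintenance methyltransferase, was lower, at -0.41 ± 0.07 (adjusted p = 1.62e-04) and gave -0.10 in the matrix (adjusted p = 0.729).

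**Figure D5:**
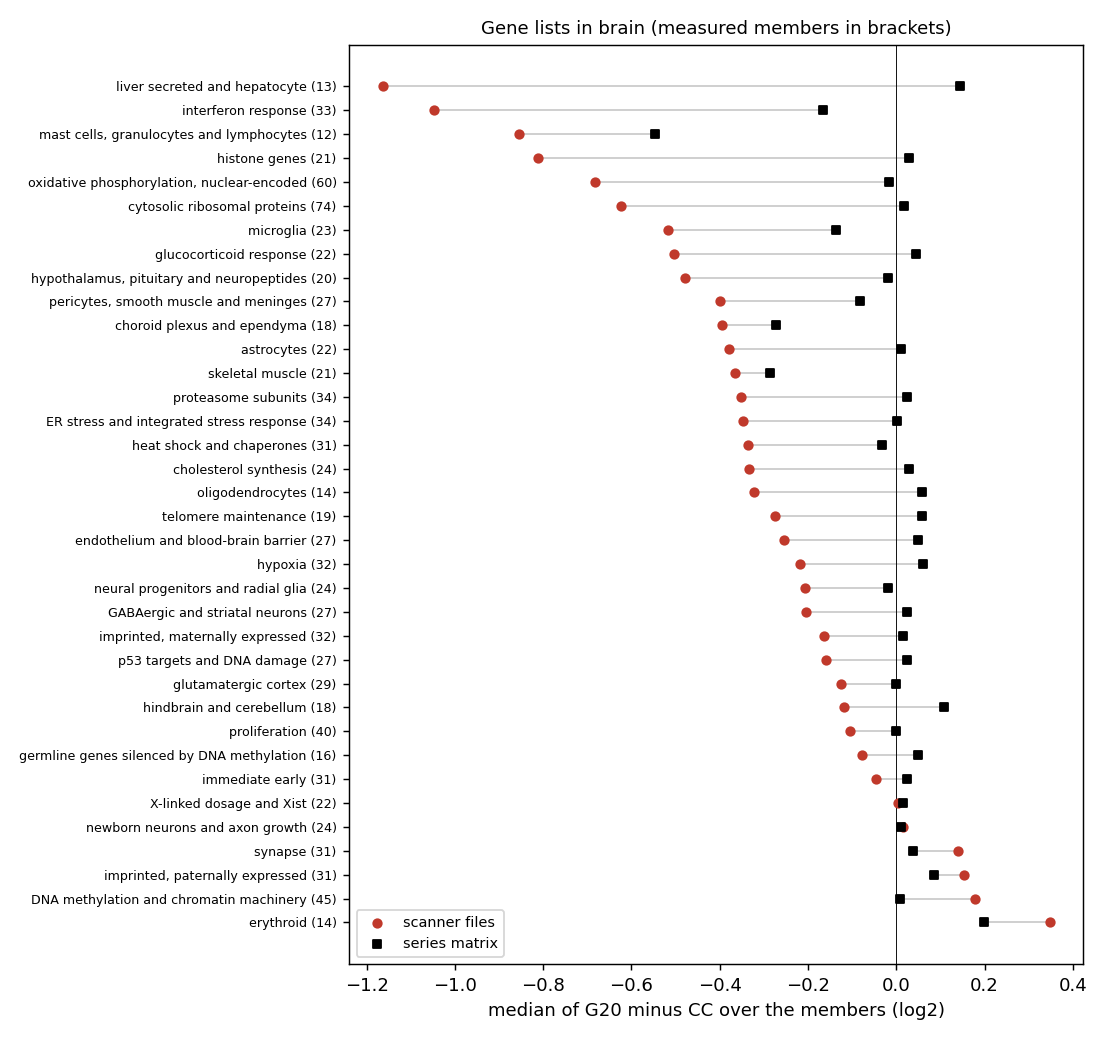
For each gene list with at least 10 measured members, the median of G20 minus CC over the members is plotted on the scanner files (red circles) and in the series matrix (black squares), in log2 units. Interferon, histone, oxidative phosphorylation and ribosomal lists lie well below 0 on the scanner files and closer to 0 in the matrix.

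Probes of one gene could also disagree strongly. Among the called genes the widest gaps between measured probes belonged to Tmem117, Zfp282, Slc4a7, Usp53 and Glul. Glul, glutamine synthetase of astrocytes, had probes at -3.49, -0.67 and -0.03 on the scanner files and at -2.61, 0.06 and -0.04 in the matrix. Zfp282 had 2.80 and -1.08. None of these 5 genes was called in both sources. Over all 6520 genes with a further measured probe, 52.1% had every further probe on the same side as the main one.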

How the data were processed

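RNA of 24 brain and liver samples was hybridised to single-colour arrays, and the 12 brain arrays were used here. Agilent Feature Extraction 9.5.3.1 wrote the scanner's intensity values, per the file headers. Values in the deposited matrix are linear intensities whose scaling by the authors no source used here describes. Spot flags (well above background, outlier) are another kind of value, 0 or 1, per the file headers. Without control spots, a file had 43379 spots for 41174 probes. Outlier spots were left out, and log2 of the processed signal was centred on each array's 75th percentile. Positions are on mm8, and 23374 probes were named through their accession. A probe was kept if well above background on all 4 arrays of a group, and the brightest stood for its gene. A limma 3.58.1 model (R 4.3.3) over the 12 arrays gave the tests, with genes called at an adjusted p (Benjamini-Hochberg) under 0.05, and it was tested on simulated data. The number of arrays limits the precision. Named genes were the highest and lowest called in both sources, list members called in both, fixed imprinted genes and called genes with the widest gap between probes, and not every gene so named is reported here. The members and the 37 gene lists were chosen with earlier results of these data known. Same-numbered samples of G20 and CC did not deviate together (r between -0.119 and 0.039), so replicate numbers were not used as pairs.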

Additional observations from a re-analysis of the deposited data

Results flagged for a closer look

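Among 114 groups of 4 arrays of the named genes, 9 held an array whose gap to the nearest other array took up more of the group's range than Dixon's 95% limit allows, and chance flags about 1 group in 20. Plagl1 stood at 2.41 in CC replicate 1, against 2.68 to 2.70 in the other CC arrays. Lama3 stood at -1.48 in G20 replicate 2, against -1.92 to -1.86 in the other G20 arrays. Impact stood at 2.80 in CC replicate 3, against 2.92 to 2.94 in the other CC arrays. Prdm16 stood at -3.54 in G20 replicate 3, against -3.20 to -3.14 in the other G20 arrays. Blcap stood at 4.24 in CC replicate 1, against 5.24 to 5.34 in the other CC arrays. Ifitm1 stood at -2.26 in G20 replicate 2, against -1.93 to -1.91 in the other G20 arrays. C1qa stood at -0.93 in G20 replicate 2, against -0.52 to -0.48 in the other G20 arrays. H13 stood at -1.36 in G20 replicate 1, against -0.35 to -0.25 in the other G20 arrays. Xist stood at 3.55 in G20 replicate 3, against 3.78 to 3.82 in the other G20 arrays. G20 replicate 2 was the array apart for 3 of these genes, and CC replicate 1 and G20 replicate 3 for 2 genes each.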

How the results depend on the processing

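For genes called on the scanner files, normexp background correction gave 3710 (1260 higher, 2450 lower), no filter on dim probes 19773 and the series matrix 227, against 12374. Median scaling gave 12657, of which 28.8% were higher, against 41.0%. That share was 25.7% with no filter, 45.3% after quantile normalization, 47.5% with the mean of all probes and 50.7% with the percentile over probes well above background on all brain arrays. For genes called in both sources with no disagreeing probe, normexp gave 93, the G20 and CC arrays alone 120 and the fit with the replicate number as a block 95, against 189. The numbers mark no shared animal, so that block value reflects a number alone. Leaving out 1 array gave 11686 to 12351, 75 to 187 and 45 to 48 for the genes called on the scanner files, called in both with no disagreeing probe, and named and called, against 12374, 189 and 48. Of 57 named genes 48 were called in the reported direction, and normexp gave 26. Signs turned for Htatip2 (-0.0991) and D830029L11 (-0.0287) under normexp, for Edem1 (0.0967), Zfp282 (0.862) and Slc4a7 (0.446) with the mean of all probes, and for Tmem117 (0.114), Slc4a7 (0.0837) and Glul (0.0571) in the matrix. The cause was not tested. Scan session and slide cannot be told apart from group, and donor genotype was not compared between groups.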
